A study of Mus musculus with 24 samples.

Results

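The 10 genes described here encode receptors for scavenging and for the uptake of dying cells, with 1 secreted relative, and were followed in RNA sequencing of mouse bone marrow-derived macrophages: Marco, Msr1, Cd36, Mrc1, Stab1, Cd163, Scarb1, Cd5l, Mertk and Axl. They were taken by symbol from the gene counts, so they are 10 of 24421 genes. The rule that names them uses no measured value, but they were chosen with earlier results of these data known. The cells came from C57BL/6J mice of 12 weeks and were OGT knockout (KO) or wild type (WT). Each genotype was stimulated for 12 hours with LPS (100 ng/ml) or with IL-4 (10 ng/ml), or was left unstimulated (M0). KO LPS, WT LPS, KO IL-4, WT IL-4, KO M0 and WT M0 held 4 libraries each, 24 in all, numbered 5 to 8 in KO and 1 to 4 in WT as their label codes are. The sources used here give neither how Ogt was deleted nor whether the 4 libraries in a group are from different animals, so p-values cover only the spread between these libraries, which may be technical. Marrow cultures are grown out from mixed precursors, so cells other than macrophages can remain in them.

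Macrophages clear debris with several unrelated families of surface receptors. Class A and class B scavenger receptors bind modified lipoproteins, bacteria and oxidised lipids, and the mannose receptor, the stabilins and CD163 take up sugars, matrix fragments and haemoglobin complexes. Dying cells expose phosphatidylserine, which is bridged by the soluble proteins GAS6 and protein S to the tyrosine kinase receptors MERTK and AXL, and which stabilin-1 and CD36 also help to recognise. Macrophages given IL-4 are known for high mannose receptor, while LPS is known to induce MARCO and AXL.

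Total gene counts were 63429271 to 94942464 in 21 libraries and 172771 to 209368 in 3: KO LPS library 7 and WT LPS libraries 1 and 2. A single count was worth 5.16 to 5.98 CPM, counts per 1000000, in these 3 shallow libraries, and a count of 0 there allows up to 15.5 to 17.9 CPM (3 counts, counting error only). Ogt averaged 40.6 ± 8.91 CPM in KO LPS and 59.2 ± 5.93 CPM in WT LPS, 33.3 ± 1.24 CPM in KO IL-4 and 54.4 ± 4.05 CPM in WT IL-4, and 35.4 ± 1.13 CPM in KO M0 and 49.6 ± 2.64 CPM in WT M0 (SD, n = 4 each). All KO values lay below all WT values in each state, with log2 fold changes of -0.63 ± 0.072 (SE, adjusted p = 4.22e-07) in LPS, -0.71 ± 0.057 (SE, adjusted p = 2.82e-09) in IL-4 and -0.49 ± 0.057 (SE, adjusted p = 1.01e-06) in M0, so Ogt RNA was reduced and not lost. Whether the counted reads lie in the deleted stretch is not known here. Summed over 10 macrophage markers, the level was 9383 to 12007 CPM in KO LPS and 16409 to 17100 CPM in WT LPS, 5612 to 6028 CPM in KO IL-4 and 6369 to 7090 CPM in WT IL-4, and 7731 to 9574 CPM in KO M0 and 12299 to 13957 CPM in WT M0. By edgeR, 1 of these 10 was higher and 6 were lower in KO in LPS, 1 was higher (2 by DESeq2) and 2 lower in IL-4, and 5 were lower in M0. The shares of all genes higher and lower were 16.2% and 14.6% in LPS, 17.9% and 18.2% in IL-4, and 11.8% and 10.5% in M0. None of the 10 was at 0 in every library of a group, and some of them stand in gene lists used below. Osteoclast markers summed to 160.3 to 227 CPM in KO LPS and 267 to 356 CPM in WT LPS, 90.6 to 116 CPM in KO IL-4 and 96.5 to 107.5 CPM in WT IL-4, and 69.7 to 81.3 CPM in KO M0 and 97.6 to 129 CPM in WT M0. Adipocyte markers summed to 53.1 to 77.7 CPM in KO LPS and 10.3 to 20.9 CPM in WT LPS, 128 to 169 CPM in KO IL-4 and 70.4 to 88.4 CPM in WT IL-4, and 55.9 to 65.8 CPM in KO M0 and 34.9 to 41.4 CPM in WT M0. Of these 5 genes only 2 passed the count filter. In each state 1 of them was higher in KO and the other was not called. Neutrophil, dendritic and B cell markers each summed to at most 62.9 CPM and those of megakaryocytes, led by Pf4, to 346 to 649 CPM. Markers of T and NK cells and of erythroid cells summed to at most 0.429 CPM in every library.

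Stromal markers, among them collagen genes, summed to 16314 to 18811 CPM in KO LPS and 11346 to 14204 CPM in WT LPS, 10797 to 14098 CPM in KO IL-4 and 7340 to 7894 CPM in WT IL-4, and 14752 to 19244 CPM in KO M0 and 10317 to 12016 CPM in WT M0. Of the 8 stromal genes, 6 were higher in KO in LPS, 7 in IL-4 and 6 in M0. Endothelial markers summed to 88.3 to 143.5 CPM in KO LPS and 20.6 to 50.2 CPM in WT LPS, 20.2 to 49.7 CPM in KO IL-4 and 21.03 to 25.5 CPM in WT IL-4, and 26.6 to 87.1 CPM in KO M0 and 16.9 to 22.2 CPM in WT M0. Of the 8 endothelial genes, 2 were higher in KO in LPS, 3 in IL-4 and 5 in M0. Over all genes tested, 16.2%, 17.9% and 11.8% were higher and 14.6%, 18.2% and 10.5% lower in LPS, IL-4 and M0. Called lower were 0 genes of either list in any state by edgeR or DESeq2, with 1 stromal gene lower in M0 at an unadjusted p under 0.05. No stromal or endothelial gene was at 0 in every library of a group. Stromal sums of all KO libraries lay above those of all WT libraries in each state. So did endothelial sums in LPS and M0. In IL-4 the endothelial sums were 20.2 and 20.9 CPM in KO libraries 5 and 6, below all WT libraries. They were 49.7 and 49.5 CPM in KO libraries 7 and 8. Such cells also make several of the receptors, and the part of these levels in the results below was not tested. In such bulk samples fewer cells of a type and less RNA per cell cannot be told apart.

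The receptors differed between the genotypes in both directions. A gene was called where edgeR's quasi-likelihood test over 14693 genes, all 10 receptors included, gave an adjusted p (Benjamini-Hochberg) under 0.05. In LPS, 4 receptors were higher in KO (Mrc1, Cd5l, Mertk and Axl) and 4 were lower (Marco, Msr1, Stab1 and Cd163), against 16.2% of all genes higher and 14.6% lower. In IL-4, Cd5l was higher in KO, and Msr1 and Cd36 were lower, 1 and 2 of the 10, against 17.9% of all genes higher and 18.2% lower. In M0, Cd5l was again higher, and 5 were lower, namely Marco, Msr1, Cd36, Stab1 and Cd163, against 11.8% of all genes higher and 10.5% lower. Cd5l was called higher and Msr1 lower in all 3 states. The median log2 fold change of the 10 was -0.18 in LPS, -0.12 in IL-4 and -0.30 in M0, beside 0.012, 0.0065 and 0.015 over all genes tested. The groups did not overlap for 5 receptors in LPS (12.9% of all genes), 3 in IL-4 (37.1%) and 5 in M0 (27.1%).

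**Figure D1:**
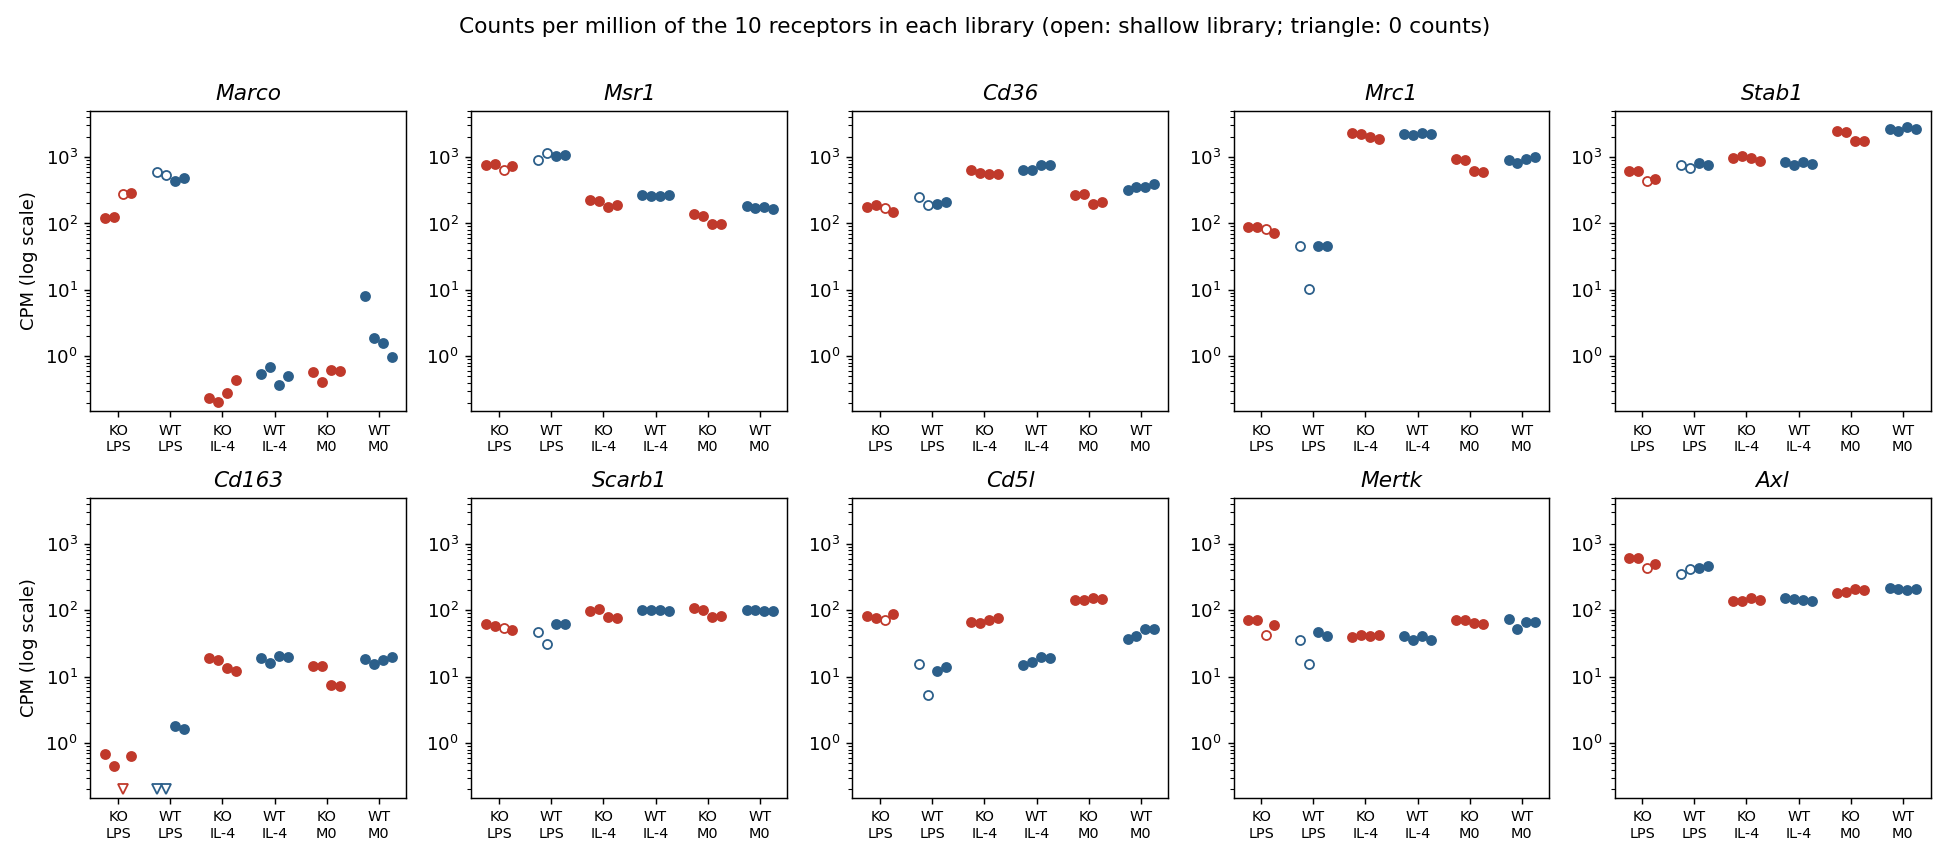
Each panel shows 1 receptor, with CPM on a log axis and 1 point per library, KO in red left of WT in blue within LPS, IL-4 and M0. Open symbols are the 3 shallow libraries, and open triangles at the foot of the Cd163 panel are libraries with 0 counts. Cd5l is higher in all KO libraries than in all WT libraries of the same state, and Msr1 is lower.

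LPS and IL-4 moved most of the receptors in both genotypes. With LPS, Marco, Msr1 and Axl rose in KO and in WT. They are 3 of 10 in each genotype, against 31.2% of all genes higher in KO and 29.4% in WT. LPS lowered 6 receptors in KO and 7 in WT, against 36.0% and 28.3% of all genes. IL-4 raised Msr1, Cd36, Mrc1 and Cd163 in KO, against 26.0% of all genes, and the first 3 of these in WT, against 30.9%. IL-4 lowered Stab1, Cd5l, Mertk and Axl in both genotypes and Marco in WT, which makes 4 of 10 in KO and 5 of 10 in WT, against 25.2% and 29.3% of all genes. The responses of the genotypes share no libraries with each other, and their difference was tested as an interaction, the KO response minus the WT response. It was positive and called for 4 receptors with LPS (Mrc1, Cd5l, Mertk and Axl; 6.62% of all genes) and for Stab1 with IL-4 (0.470% of all genes). No receptor was called in the negative direction, against 4.79% of all genes with LPS and 0.667% with IL-4. At an unadjusted p under 0.05 edgeR also put 0 receptors in the negative direction with either stimulus, and DESeq2 called 0, while without KO numbers 7 and 8 Cd163 was called negative with LPS (-1.25 (adjusted p = 0.00111)).

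**Figure D2:**
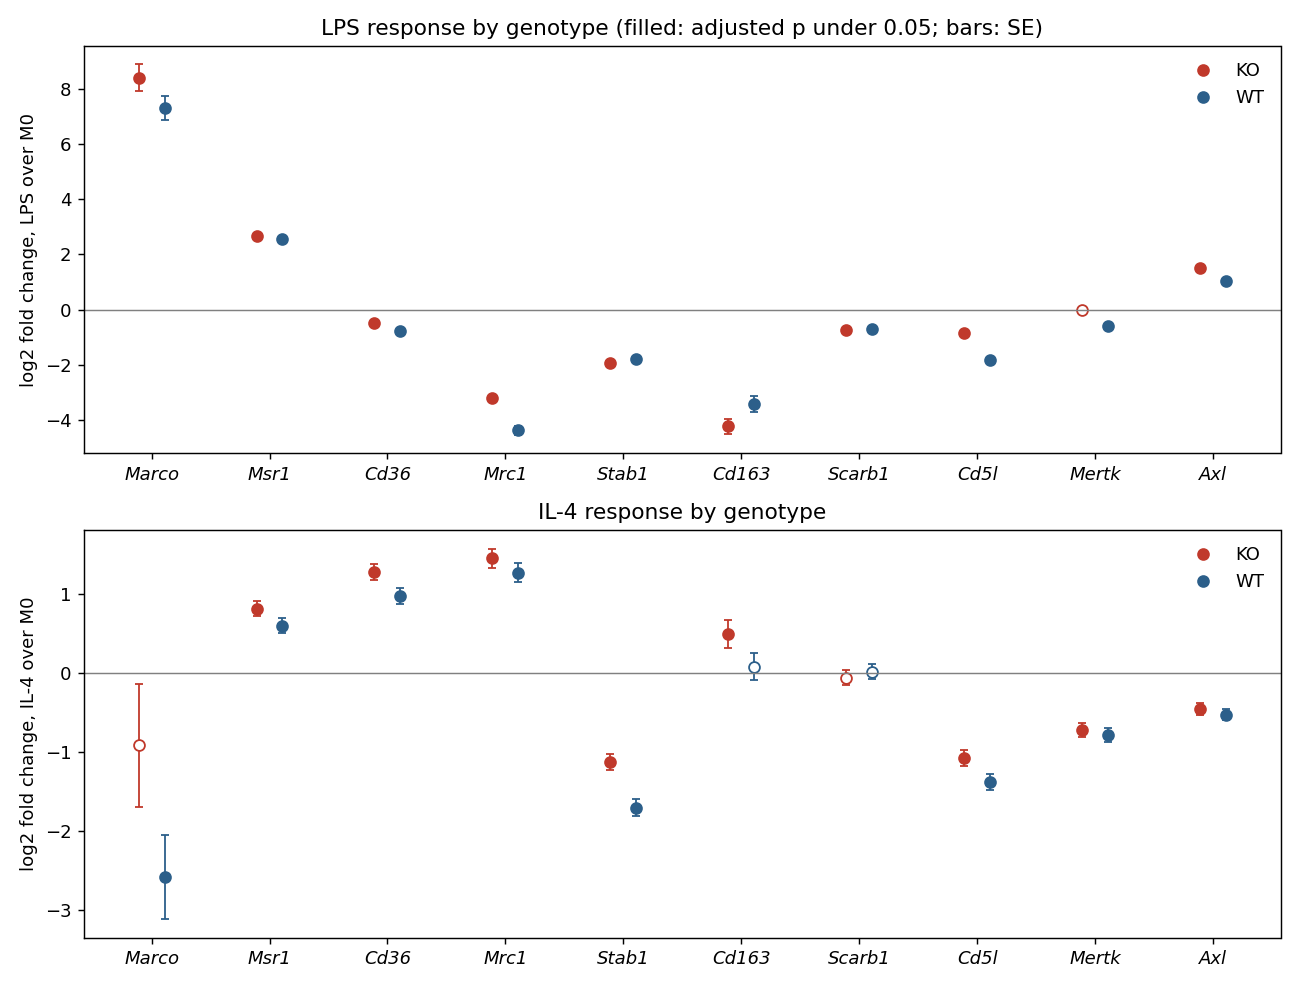
Log2 fold changes of LPS over M0 (upper panel) and of IL-4 over M0 (lower panel) are plotted for each receptor, KO in red left of WT in blue, with bars for the SE and filled points for an adjusted p under 0.05. Mrc1, Cd5l and Mertk were lowered less by LPS, or not called, in KO, and Axl was raised more.

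Windows upstream of 3 RefSeq gene starts are shown for the receptors on which the genotype comparisons turn: Marco, the receptor furthest below WT in M0; Cd5l, the receptor furthest above it in each state; and Mrc1, which had the largest difference in its LPS response. Of the 10 receptors, 8 matched a RefSeq promoter entry of GRCm38.p6, all but Msr1 and Scarb1. Each line gives the 250 bases before the gene start, read 5′ to 3′ on the gene's strand, at chr1:120505025-120505274 on the minus strand for Marco, chr3:87357631-87357880 on the plus strand for Cd5l and chr2:14229164-14229413 on the plus strand for Mrc1. Capitals mark every match, on either strand, to the motifs searched, of which 3 were present: GAGGAA of PU.1, the macrophage lineage factor, also written TTCCTC on the other strand; GGG and TTCC with any 3 bases between them, a pattern of NF-kB, the factor that LPS activates; and TTC and GAA with any 4 bases between them, which STAT factors bind.
Marco: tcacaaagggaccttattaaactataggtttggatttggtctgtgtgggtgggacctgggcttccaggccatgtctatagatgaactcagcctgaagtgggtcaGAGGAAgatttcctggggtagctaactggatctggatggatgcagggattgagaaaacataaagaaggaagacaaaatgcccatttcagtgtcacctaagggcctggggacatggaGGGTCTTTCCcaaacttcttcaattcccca
Cd5l: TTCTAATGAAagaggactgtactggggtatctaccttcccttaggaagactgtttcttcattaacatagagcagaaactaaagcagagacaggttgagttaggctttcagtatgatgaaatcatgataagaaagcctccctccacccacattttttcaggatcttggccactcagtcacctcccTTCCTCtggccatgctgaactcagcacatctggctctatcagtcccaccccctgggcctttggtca
Mrc1: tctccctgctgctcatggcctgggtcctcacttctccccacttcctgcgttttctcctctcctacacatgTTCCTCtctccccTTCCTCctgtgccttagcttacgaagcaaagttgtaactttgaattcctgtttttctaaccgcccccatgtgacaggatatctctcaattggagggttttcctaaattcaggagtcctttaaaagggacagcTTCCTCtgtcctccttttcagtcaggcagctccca
The Marco window held GAGGAA 141 to 146 bases before the start and the NF-kB pattern 21 to 30 bases before it. The Cd5l window held the STAT pattern at its outer edge, 241 to 250 bases before the start, and TTCCTC 61 to 66 bases before it. The Mrc1 window held TTCCTC at 3 places. Among 32851 promoter windows of the same length, 23.3% held the PU.1 letters, 4.65% the NF-kB pattern and 5.85% the STAT pattern. Stab1, whose RefSeq start letters were also found in a GENCODE transcript, held PU.1 letters too, and over these 4 windows the NF-kB pattern was only in that of Marco and the STAT pattern only in that of Cd5l. Matches of the other motifs searched were in none of the 4: AGGTCA (the nuclear receptor core, 14% of all windows), TGA and TCA with any 1 base between (AP-1, 6.75%), CACGTG (the E-box, 6.02%), GAAA and GAAA with any 2 between (ISRE, 2.98%), and TGAC and GC with any 3 between (the antioxidant response element, 10.2%). The windows of Cd36, Cd163, Mertk and Axl, whose start letters were not found in a GENCODE transcript of the gene, are not described. These matches describe letters in a window and not bound sites.

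Marco (ENSMUSG00000026390, chr1:120474538-120505024, GRCm38.p6) encodes a class A scavenger receptor of macrophages that binds bacteria and particles. It was the most strongly induced of the 10 by LPS and it was lower in KO in LPS and in M0. In LPS, Marco had 122, 124, 281 and 285 CPM in KO libraries 5 to 8, against 588, 544, 438 and 480.1 CPM in WT libraries 1 to 4. Its IL-4 values were 0.235, 0.207, 0.277 and 0.442 CPM in KO libraries 5 to 8, against 0.542, 0.686, 0.366 and 0.499 CPM in WT libraries 1 to 4. Its M0 values were 0.575, 0.402, 0.621 and 0.5899 CPM in KO libraries 5 to 8, against 7.98, 1.85, 1.601 and 0.969 CPM in WT libraries 1 to 4. KO lay wholly below WT in LPS and in M0 and overlapped it in IL-4, and WT M0 library 1 stood far above the other 3 of its group.

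The log2 fold change of Marco, KO over WT, was -1.42 ± 0.37 (SE, adjusted p = 0.00485) in LPS, -0.85 ± 0.80 (SE, adjusted p = 0.4304) in IL-4 and -2.51 ± 0.52 (SE, adjusted p = 0.001004) in M0. Without WT M0 library 1 the M0 value was -1.44 ± 0.37 (SE, adjusted p = 0.00817). In KO LPS the numbers 5 and 6 were lower than 7 and 8, and without KO numbers 5 and 6 the LPS difference was -0.74 (adjusted p = 0.167). That setting leaves only library 8 and the shallow library 7 in KO LPS, here and for the receptors below. LPS raised Marco by 8.39 ± 0.49 (SE, adjusted p = 3.12e-14) in KO and by 7.30 ± 0.43 (SE, adjusted p = 7.97e-14) in WT, or by 8.26 (adjusted p = 4.47e-17) in WT without WT M0 library 1. The interaction with LPS was not called, at 1.09 ± 0.65 (SE, adjusted p = 0.308), and was -0.02 (adjusted p = 0.992) without that library. IL-4 gave -0.91 ± 0.78 (SE, adjusted p = 0.341) in KO, which was not called, and lowered Marco in WT, at -2.58 ± 0.53 (SE, adjusted p = 1.87e-04), or -1.55 (adjusted p = 0.00141) without library 1. With only the compared groups in the edgeR fit, the IL-4 response in KO was called, at -0.92 (adjusted p = 0.0239). So was the IL-4 difference between genotypes, at -0.84 (adjusted p = 0.0488).

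Msr1 (chr8:39543232-39642750), the class A receptor for acetylated and oxidised low density lipoprotein, was lower in KO in every state. In LPS, Msr1 had 769.8, 785, 646 and 727 CPM in KO libraries 5 to 8, against 908, 1151, 1040.0 and 1064 CPM in WT libraries 1 to 4. Its IL-4 values were 228, 219.8, 180.0 and 188 CPM in KO libraries 5 to 8, against 272, 259.6, 260.5 and 269 CPM in WT libraries 1 to 4. Its M0 values were 139, 129, 98.4 and 96.96 CPM in KO libraries 5 to 8, against 186, 174, 175 and 166 CPM in WT libraries 1 to 4. All 4 KO libraries lay below all 4 WT libraries in each state. Log2 fold changes, KO over WT, came to -0.49 ± 0.104 (SE, adjusted p = 8.16e-04) in LPS, -0.38 ± 0.095 (SE, adjusted p = 0.00302) in IL-4 and -0.60 ± 0.095 (SE, adjusted p = 6.72e-05) in M0. Both stimuli raised Msr1, LPS by 2.69 ± 0.103 (SE, adjusted p = 3.97e-18) in KO and 2.58 ± 0.104 (SE, adjusted p = 2.16e-17) in WT and IL-4 by 0.82 ± 0.095 (SE, adjusted p = 9.03e-08) in KO and 0.60 ± 0.095 (SE, adjusted p = 6.10e-06) in WT. Its interactions, 0.11 ± 0.14 (SE, adjusted p = 0.672) with LPS and 0.22 ± 0.13 (SE, adjusted p = 0.495) with IL-4, were not called. Without KO numbers 5 and 6 both were called, at 0.33 (adjusted p = 0.0483) and 0.34 (adjusted p = 0.0468). The LPS value then had only library 8 and the shallow library 7 in KO LPS.

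Cd36 (chr5:17781690-17888959), a class B receptor for fatty acids, oxidised lipoproteins and apoptotic cells and a known target of PPARγ, was lower in KO in M0 and in IL-4. In LPS, Cd36 had 177, 192, 173 and 149 CPM in KO libraries 5 to 8, against 253, 188, 198 and 208 CPM in WT libraries 1 to 4. Under IL-4, Cd36 had 632, 567, 552 and 558 CPM in KO libraries 5 to 8, against 631, 637, 752 and 765 CPM in WT libraries 1 to 4. In M0, Cd36 had 271, 274, 194 and 212 CPM in KO libraries 5 to 8, against 324, 349, 353 and 391 CPM in WT libraries 1 to 4. The groups were apart in M0 and overlapped slightly in the stimulated states. KO over WT gave -0.26 ± 0.12 (SE, adjusted p = 0.107) in LPS, -0.27 ± 0.099 (SE, adjusted p = 0.0353) in IL-4 and -0.57 ± 0.099 (SE, adjusted p = 1.67e-04) in M0 on the log2 scale. The IL-4 call was lost, at adjusted p from 0.0544 to 0.0950, when KO IL-4 library 6, 7 or 8 or WT IL-4 library 3 or 4 was left out, and DESeq2 gave 0.0713. IL-4 raised Cd36 by 1.28 ± 0.1 (SE, adjusted p = 7.25e-11) in KO and 0.98 ± 0.0997 (SE, adjusted p = 5.71e-09) in WT, while LPS lowered it, at -0.46 ± 0.11 (SE, adjusted p = 4.39e-04) in KO and -0.78 ± 0.12 (SE, adjusted p = 2.17e-06) in WT. Neither interaction was called (0.32 ± 0.16 (SE, adjusted p = 0.201) with LPS and 0.30 ± 0.14 (SE, adjusted p = 0.318) with IL-4). Without KO numbers 5 and 6 the IL-4 interaction of Cd36 was called, at 0.50 (adjusted p = 0.0133), and so was its difference between genotypes in LPS, at -0.43 (adjusted p = 0.00602). This left only library 8 and the shallow library 7 in KO LPS.

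Scarb1 (chr5:125277087-125341094), the class B receptor for high density lipoprotein, which also binds phosphatidylserine, was not called between genotypes in any state. In LPS, Scarb1 had 61.7, 57.99, 53.8 and 50.8 CPM in KO libraries 5 to 8, against 46.4, 31.4, 62.7 and 61.9 CPM in WT libraries 1 to 4. Under IL-4, Scarb1 had 98.6, 105, 79.1 and 77.2 CPM in KO libraries 5 to 8, against 102, 102, 100.0 and 98.9 CPM in WT libraries 1 to 4. In M0, Scarb1 had 109, 102, 78.97 and 83.1 CPM in KO libraries 5 to 8, against 100.2, 100.2, 99.1 and 97.4 CPM in WT libraries 1 to 4. WT libraries were nearly level in IL-4 and M0, while KO numbers 7 and 8 lay below KO numbers 5 and 6. Log2 fold changes, KO over WT, came to -0.10 ± 0.12 (SE, adjusted p = 0.565), -0.16 ± 0.095 (SE, adjusted p = 0.186) and -0.09 ± 0.095 (SE, adjusted p = 0.546) in LPS, IL-4 and M0. Without KO numbers 5 and 6 all 3 were called: -0.26 (adjusted p = 0.0266) in LPS, -0.37 (adjusted p = 3.29e-05) in IL-4 and -0.32 (adjusted p = 2.30e-04) in M0. The LPS value then rests on library 8 and the shallow library 7 in KO, the latter with 9 counts of Scarb1. LPS lowered Scarb1 in both genotypes, at -0.72 ± 0.104 (SE, adjusted p = 1.04e-06) in KO and -0.70 ± 0.12 (SE, adjusted p = 9.90e-06) in WT, and IL-4 gave -0.05 ± 0.095 (SE, adjusted p = 0.654) in KO and 0.02 ± 0.095 (SE, adjusted p = 0.868) in WT.

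Mrc1 (chr2:14229414-14332023), the mannose receptor CD206 and a standard marker of IL-4 activation, fell steeply with LPS in both genotypes, but less in KO. In LPS, Mrc1 had 87.5, 89.5, 83.7 and 70.7 CPM in KO libraries 5 to 8, against 46.4, 10.5, 46.3 and 45.6 CPM in WT libraries 1 to 4. Under IL-4, Mrc1 had 2281, 2206, 1995 and 1883 CPM in KO libraries 5 to 8, against 2204, 2128, 2321 and 2227 CPM in WT libraries 1 to 4. In M0, Mrc1 had 924, 908, 624 and 599 CPM in KO libraries 5 to 8, against 905, 819.8, 948 and 1009 CPM in WT libraries 1 to 4. All KO LPS libraries were above all WT LPS libraries, and the groups overlapped in the other states. The shallow KO LPS library 7 held 14 counts of Mrc1, and the shallow WT LPS libraries 1 and 2 held 9 and 2.

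The log2 fold change of Mrc1, KO over WT, was 0.88 ± 0.15 (SE, adjusted p = 1.13e-04) in LPS, and 0.85 ± 0.16 (SE, adjusted p = 3.99e-04) without the 3 shallow libraries. It was -0.09 ± 0.12 (SE, adjusted p = 0.606) in IL-4 and -0.27 ± 0.12 (SE, adjusted p = 0.1102) in M0, neither called. Leaving out KO M0 library 5 or 6 made the M0 difference significant (-0.39 (adjusted p = 0.0181) and -0.38 (adjusted p = 0.0262)). It was -0.62 (adjusted p = 8.40e-06) without KO numbers 5 and 6. LPS lowered Mrc1, at -3.21 ± 0.14 (SE, adjusted p = 9.44e-17) in KO and -4.36 ± 0.17 (SE, adjusted p = 6.79e-18) in WT, an interaction of 1.15 ± 0.20 (SE, adjusted p = 3.31e-04), or 1.14 ± 0.20 (SE, adjusted p = 6.99e-04) without the shallow libraries. IL-4 raised it by 1.45 ± 0.12 (SE, adjusted p = 2.53e-10) in KO and 1.27 ± 0.12 (SE, adjusted p = 1.75e-09) in WT, and this difference between genotypes was not called (0.18 ± 0.17 (SE, adjusted p = 0.703)).

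Stab1 (chr14:31139017-31168651), stabilin-1, clears matrix fragments and binds phosphatidylserine, and it is made by endothelial cells as well as macrophages. It was lower in KO after LPS and in M0, and after IL-4 every KO library lay above every WT library. In LPS, Stab1 had 615, 607, 437 and 463 CPM in KO libraries 5 to 8, against 748, 696, 818 and 766 CPM in WT libraries 1 to 4. Under IL-4, Stab1 had 958, 1032, 966 and 882 CPM in KO libraries 5 to 8, against 832, 773, 841 and 791 CPM in WT libraries 1 to 4. In M0, Stab1 had 2439, 2419, 1733 and 1764 CPM in KO libraries 5 to 8, against 2632, 2439, 2800.4 and 2647 CPM in WT libraries 1 to 4. KO was wholly below WT in LPS, wholly above it in IL-4, and overlapped it in M0, where KO numbers 7 and 8 were the low ones.

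On the log2 scale Stab1 differed, KO over WT, by -0.49 ± 0.11 (SE, adjusted p = 0.00186) in LPS, 0.25 ± 0.104 (SE, adjusted p = 0.0661) in IL-4, which was not called (without KO numbers 7 and 8 it was 0.30 (adjusted p = 0.001098)), and -0.33 ± 0.104 (SE, adjusted p = 0.0221) in M0. The M0 call was lost without KO M0 library 7 (-0.27 (adjusted p = 0.0588)) or library 8 (-0.27 (adjusted p = 0.0579)), and without both numbers the value was -0.12 (adjusted p = 0.2003). Both stimuli lowered Stab1. LPS did so at -1.94 ± 0.11 (SE, adjusted p = 2.36e-14) in KO and -1.78 ± 0.11 (SE, adjusted p = 3.25e-13) in WT, and IL-4 at -1.12 ± 0.105 (SE, adjusted p = 1.82e-09) in KO and -1.70 ± 0.11 (SE, adjusted p = 5.75e-13) in WT. The IL-4 interaction, 0.58 ± 0.15 (SE, adjusted p = 0.04998), lay at the threshold and was lost at adjusted p of 0.0631 to 0.0889 on leaving out KO M0 library 7 or 8, KO IL-4 library 6 or 7, WT M0 library 1, 3 or 4, or WT IL-4 library 1, 2 or 4. Exons of Stab1 share 112 bases with Nt5dc2 on the other strand, and the sources used here do not say whether counting used strand.

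Cd163 (chr6:124304636-124330529), the receptor for haemoglobin bound to haptoglobin, was a low transcript that LPS reduced further. In LPS, Cd163 had 0.677, 0.459, 0 and 0.646 CPM in KO libraries 5 to 8, against 0, 0, 1.78 and 1.62 CPM in WT libraries 1 to 4. Under IL-4, Cd163 had 18.8, 18.02, 13.6 and 12.1 CPM in KO libraries 5 to 8, against 19.3, 16.3, 20.7 and 19.97 CPM in WT libraries 1 to 4. In M0, Cd163 had 14.7, 14.6, 7.48 and 7.34 CPM in KO libraries 5 to 8, against 18.2, 15.7, 18.1 and 20.004 CPM in WT libraries 1 to 4. The LPS values of 0 are the 3 shallow libraries, so the LPS comparison rests on KO libraries 5, 6 and 8 and WT libraries 3 and 4, which did not overlap. KO over WT gave -1.50 ± 0.36 (SE, adjusted p = 0.00254) in LPS, -0.28 ± 0.17 (SE, adjusted p = 0.206) in IL-4 and -0.70 ± 0.17 (SE, adjusted p = 0.00475) in M0, and the LPS value without the shallow libraries was -1.50 (adjusted p = 0.00668). The M0 value was -1.31 (adjusted p = 6.34e-10) without KO numbers 5 and 6, -0.31 (adjusted p = 0.0241) without 7 and 8, and not called by DESeq2 (adjusted p = 0.134). LPS lowered Cd163, at -4.21 ± 0.28 (SE, adjusted p = 3.69e-13) in KO and -3.41 ± 0.28 (SE, adjusted p = 5.33e-11) in WT, with an interaction of -0.80 ± 0.40 (SE, adjusted p = 0.216), which was not called, and of -1.25 (adjusted p = 0.00111) without KO numbers 7 and 8. IL-4 gave 0.50 ± 0.17 (SE, adjusted p = 0.0191) in KO and 0.08 ± 0.17 (SE, adjusted p = 0.697) in WT, and the KO call was lost without KO M0 library 7 or 8 or KO IL-4 library 5 or 6 (adjusted p of 0.105 to 0.153). Without KO numbers 5 and 6 the IL-4 difference between genotypes was called, at -0.57 (adjusted p = 4.54e-05), as was the IL-4 interaction, at 0.74 (adjusted p = 0.00229).

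Cd5l (chr3:87357881-87371074) encodes a secreted scavenger receptor cysteine-rich protein, also called AIM, which macrophages make under the control of the nuclear receptor LXR and which supports their survival. It was the receptor gene with the largest rise in KO, in all 3 states, while both stimuli lowered it. In LPS, Cd5l had 80.9, 77.7, 71.8 and 88.9 CPM in KO libraries 5 to 8, against 15.5, 5.23, 12.01 and 13.9 CPM in WT libraries 1 to 4. Under IL-4, Cd5l had 65.96, 64.5, 71.98 and 77.1 CPM in KO libraries 5 to 8, against 14.8, 16.6, 20.01 and 19.2 CPM in WT libraries 1 to 4. In M0, Cd5l had 143, 143, 151 and 149 CPM in KO libraries 5 to 8, against 36.9, 40.4, 53.1 and 53.2 CPM in WT libraries 1 to 4. The genotypes were far apart in every state: the highest WT M0 library lay below the lowest KO LPS and KO IL-4 libraries.

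The folds of Cd5l, KO over WT, were 6.37 in LPS, 3.95 in IL-4 and 3.19 in M0. On the log2 scale these are 2.67 ± 0.14 (SE, adjusted p = 1.45e-12), 1.98 ± 0.103 (SE, adjusted p = 7.53e-13) and 1.68 ± 0.1 (SE, adjusted p = 1.19e-11). KO LPS library 7 held 12 counts of Cd5l, and WT LPS libraries 1 and 2 held 3 and 1, and without these shallow libraries the LPS value was 2.68 ± 0.15 (SE, adjusted p = 4.40e-10). LPS lowered Cd5l, at -0.83 ± 0.11 (SE, adjusted p = 1.38e-07) in KO and -1.83 ± 0.14 (SE, adjusted p = 7.05e-12) in WT, and IL-4 at -1.07 ± 0.099 (SE, adjusted p = 1.50e-09) in KO and -1.38 ± 0.102 (SE, adjusted p = 1.61e-11) in WT. The LPS reduction was smaller in KO, with an interaction of 0.995 ± 0.17 (SE, adjusted p = 2.86e-04), or 1.03 ± 0.18 (SE, adjusted p = 6.34e-04) without the shallow libraries. The IL-4 interaction, 0.31 ± 0.14 (SE, adjusted p = 0.313), was not called. Unlike Msr1, Cd36, Stab1 and Cd163 in M0, Cd5l was as high in KO numbers 7 and 8 as in 5 and 6.

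Mertk (chr2:128698915-128803162), the main macrophage receptor tyrosine kinase for apoptotic cells, was higher in KO after LPS and not called elsewhere. In LPS, Mertk had 71.1, 72.003, 41.9 and 60.6 CPM in KO libraries 5 to 8, against 36.1, 15.7, 46.5 and 41.1 CPM in WT libraries 1 to 4. Under IL-4, Mertk had 39.1, 42.1, 41.4 and 42.8 CPM in KO libraries 5 to 8, against 40.6, 35.5, 40.5 and 35.3 CPM in WT libraries 1 to 4. In M0, Mertk had 72.4, 71.3, 65.1 and 63.2 CPM in KO libraries 5 to 8, against 73.9, 53.2, 67.1 and 66.95 CPM in WT libraries 1 to 4. KO LPS library 7, with 7 counts, lay among the WT libraries, of which the shallow 1 and 2 held 7 and 3 counts; the deep KO and WT LPS libraries did not overlap. KO over WT was 0.65 ± 0.11 (SE, adjusted p = 9.96e-05) in LPS, 0.12 ± 0.088 (SE, adjusted p = 0.293) in IL-4 and 0.06 ± 0.087 (SE, adjusted p = 0.675) in M0 on the log2 scale, and 0.64 ± 0.11 (SE, adjusted p = 2.13e-04) in LPS without the shallow libraries. With LPS Mertk gave -0.01 ± 0.094 (SE, adjusted p = 0.908) in KO, which was not called, and it was lowered in WT, at -0.60 ± 0.11 (SE, adjusted p = 2.92e-05). That difference between genotypes was 0.59 ± 0.14 (SE, adjusted p = 0.00726), or 0.60 ± 0.14 (SE, adjusted p = 0.00684) without the shallow libraries. IL-4 lowered Mertk in both genotypes, at -0.72 ± 0.088 (SE, adjusted p = 1.87e-07) in KO and -0.78 ± 0.088 (SE, adjusted p = 2.95e-08) in WT.

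Axl (chr7:25756500-25788924), the related kinase that is known to be induced by inflammatory stimuli, was raised by LPS in both genotypes and more so in KO. In LPS, Axl had 609, 607, 431 and 507 CPM in KO libraries 5 to 8, against 356, 413, 439 and 462 CPM in WT libraries 1 to 4. Under IL-4, Axl had 137, 139, 155 and 141 CPM in KO libraries 5 to 8, against 155, 147, 143 and 138 CPM in WT libraries 1 to 4. In M0, Axl had 184, 188, 207 and 203 CPM in KO libraries 5 to 8, against 218, 208, 205 and 206 CPM in WT libraries 1 to 4. KO LPS libraries 5, 6 and 8 were above all WT LPS libraries, and the shallow KO library 7 was among them. Log2 fold changes, KO over WT, came to 0.36 ± 0.083 (SE, adjusted p = 0.00151) in LPS, -0.03 ± 0.073 (SE, adjusted p = 0.805) in IL-4 and -0.10 ± 0.073 (SE, adjusted p = 0.342) in M0, and LPS gave 0.36 ± 0.076 (SE, adjusted p = 0.00124) without the shallow libraries. LPS raised Axl by 1.51 ± 0.076 (SE, adjusted p = 1.52e-15) in KO and 1.05 ± 0.08 (SE, adjusted p = 1.35e-11) in WT, an interaction of 0.46 ± 0.11 (SE, adjusted p = 0.00647), and IL-4 lowered it, at -0.45 ± 0.073 (SE, adjusted p = 1.21e-05) in KO and -0.52 ± 0.073 (SE, adjusted p = 8.84e-07) in WT. Without KO numbers 5 and 6 neither the LPS difference (0.18 (adjusted p = 0.124)) nor the interaction (0.24 (adjusted p = 0.158)) was called. KO LPS then held only library 8 and the shallow library 7. Without KO numbers 7 and 8 Axl was lower in M0, at -0.18 (adjusted p = 0.0328).

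**Figure D3:**
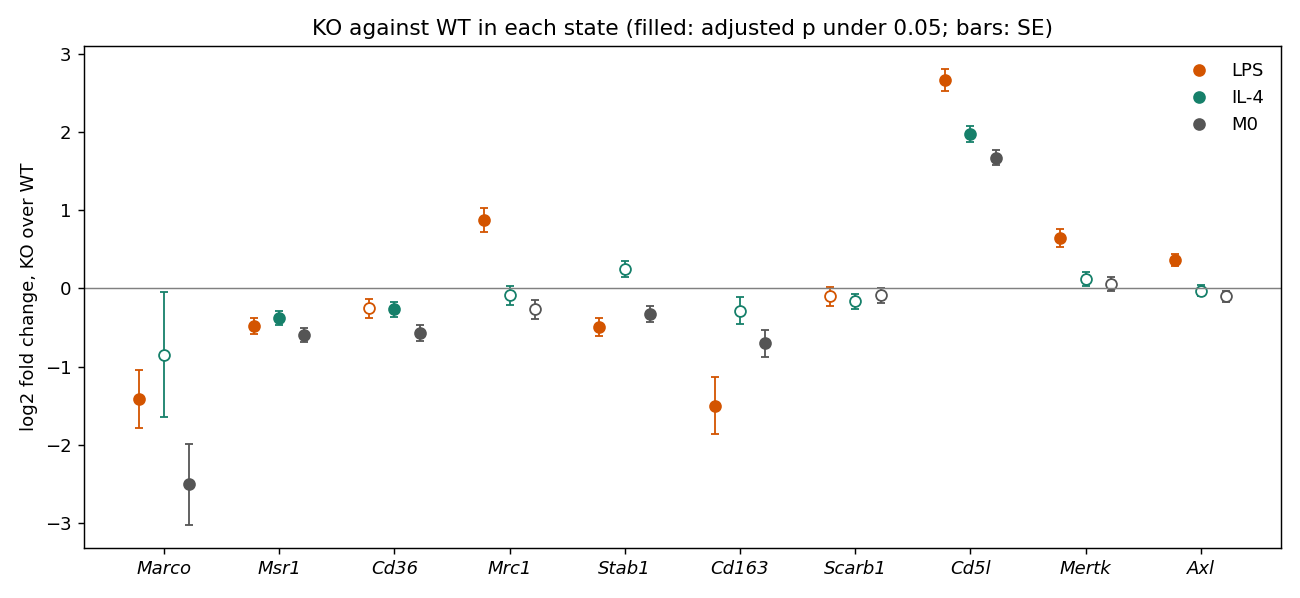
Log2 fold changes of KO over WT are plotted for each receptor in LPS (orange), IL-4 (green) and M0 (grey), with bars for the SE and filled points for an adjusted p under 0.05. Cd5l is above 0 and Msr1 below 0 in all 3 states, while Mrc1, Mertk and Axl are called in LPS and in neither other state.

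Per kilobase of exon, which allows levels of different genes to be compared, the leading receptor changed with the state. After LPS, Msr1 led in KO with 115 ± 9.86 CPM per kilobase and Marco followed as the third at 105 ± 47.9, close to Axl at 107 ± 17.1, while in WT Marco led with 266 ± 34.6 (SD, n = 4 each). After IL-4, Mrc1 led in both genotypes, at 328 ± 28.9 in KO and 348 ± 12.4 in WT, with Cd36 next. At rest Stab1 led, at 203 ± 38.2 in KO and 256 ± 14.4 in WT, ahead of Mrc1. Cd5l held the third place among the 10 in KO M0 (72.03 ± 1.98) and the sixth in WT M0 (22.5 ± 4.17). In LPS it was the sixth in KO (39.2 ± 3.51) and the ninth in WT (5.73 ± 2.22), and in IL-4 the fourth in KO (34.3 ± 2.84) and the eighth in WT (8.68 ± 1.17). Neighbours within 1 SD of each other, such as Msr1, Axl and Marco in KO LPS or Msr1 and Cd5l in KO IL-4, are not set apart by this order.

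The KO libraries fell into pairs that bear on several receptors. In M0, KO numbers 7 and 8 were below KO numbers 5 and 6 for Msr1, Cd36, Mrc1, Stab1, Cd163, Scarb1 and Mertk, and the endothelial marker sum was 84.5 and 87.1 CPM in KO numbers 7 and 8 and 26.6 and 29.9 CPM in KO numbers 5 and 6. The same order held in IL-4 for Msr1, Cd36, Mrc1, Cd163 and Scarb1, with endothelial sums of 49.7 and 49.5 CPM in KO numbers 7 and 8 and 20.2 and 20.9 CPM in 5 and 6. In LPS the sums were 143.5 and 117.6 CPM in 7 and 8 and 88.3 and 88.9 CPM in 5 and 6, and Marco was higher in 7 and 8 while Msr1, Cd36, Mrc1, Stab1, Scarb1, Mertk and Axl were lower. Library 7 there is shallow, with 29 counts of Cd36, 14 of Mrc1, 9 of Scarb1 and 7 of Mertk. With 5.98 CPM to a count, its place is uncertain for these genes and for the endothelial sum. What sets the numbers apart is not given by the labels, and their part in the genotype differences was not tested. Without KO numbers 7 and 8, Marco, Msr1, Cd36, Cd163 and Cd5l were still called in M0 and Stab1 was not. In LPS the same 8 receptors were called, with Stab1 at -0.33 (adjusted p = 7.60e-04).

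When the counts of numbers 5 and 6, 7 and 8, 1 and 2, and 3 and 4 were summed, which leaves 2 samples a group, several calls ended. In WT LPS the sum of numbers 1 and 2 was still shallow, from 209368 and 201097 gene counts. The LPS results of this setting thus rest mostly on the sum of numbers 3 and 4 in WT. In LPS, Marco (adjusted p = 0.114) and Stab1 (0.0579) were then not called, and in IL-4 Msr1 (0.0956) and Cd36 (0.279). In M0 the same held for Marco (0.0523), Cd36 (0.0631), Stab1 (0.255) and Cd163 (0.164). The LPS interactions of Mrc1 (0.101), Cd5l (0.0795), Mertk (0.134) and Axl (0.181) were not called either. Cd5l was still called higher in KO in all 3 states, with 2.71 (adjusted p = 1.38e-04) in LPS, 1.98 (adjusted p = 2.90e-04) in IL-4 and 1.66 (adjusted p = 6.70e-04) in M0.

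Among the soluble partners of these receptors, more were called higher than lower in KO. Of 9 bridging molecules and opsonins that tag dying cells, 7 were higher and none lower in LPS, 5 and none in IL-4, and 4 and 1 in M0, with median log2 fold changes of 0.37, 0.26 and 0.22. Over all genes tested, the shares higher and lower were 16.2% and 14.6% in LPS, 17.9% and 18.2% in IL-4, and 11.8% and 10.5% in M0, and the medians were 0.012, 0.0065 and 0.015. The counts of 0 lower in LPS and IL-4 were also 0 at an unadjusted p under 0.05 and by DESeq2. Lgals3, the lectin galectin-3 and a ligand of MERTK, was higher in KO by 1.11 ± 0.085 (SE, adjusted p = 9.15e-10) in LPS, 0.26 ± 0.077 (SE, adjusted p = 0.00981) in IL-4 and 0.45 ± 0.077 (SE, adjusted p = 1.62e-04) in M0. Thbs1, thrombospondin-1, a ligand of CD36, was higher by 0.39 ± 0.094 (SE, adjusted p = 0.00257), 0.54 ± 0.091 (SE, adjusted p = 6.65e-05) and 0.47 ± 0.091 (SE, adjusted p = 4.75e-04) in the same states. Mfge8, which bridges phosphatidylserine to integrins, was higher by 0.43 ± 0.091 (SE, adjusted p = 6.88e-04) in IL-4 and 0.32 ± 0.09 (SE, adjusted p = 0.0122) in M0. C1qb, a chain of the complement opsonin C1q, was higher by 0.65 ± 0.12 (SE, adjusted p = 1.47e-04) in LPS. Gas6, the ligand shared by MERTK and AXL, averaged 114 ± 24.03 CPM in KO LPS and 101 ± 1.71 CPM in WT LPS, and 803 ± 141 CPM in KO M0 and 1006 ± 76.9 CPM in WT M0 (SD, n = 4 each). LPS lowered Gas6, at -2.71 ± 0.11 (SE, adjusted p = 2.39e-17) in KO and -3.32 ± 0.13 (SE, adjusted p = 6.73e-18) in WT, with an interaction of 0.61 ± 0.16 (SE, adjusted p = 0.0116). Of the 9, 5 had a called positive LPS interaction and none a called negative one, also by DESeq2. Over all genes tested, 6.62% had a called positive LPS interaction and 4.79% a negative one. Stromal cells also make several of these proteins, and the stromal marker sums given above were likewise higher in KO in each state. With LPS over M0 the median log2 fold change of the 9 was -0.62 in KO and -0.75 in WT. That of the stromal markers was 0.25 in KO and 0.34 in WT, beside -0.067 and -0.014 over all genes. The part of stromal cells was not tested.

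Other receptors of the same kinds were counted in the same way. Of 14 further receptors for apoptotic cells, 12 passed the count filter, of which 3 were higher in KO in LPS, 4 in IL-4 and 2 in M0, and 1 was lower in M0, beside 16.2%, 17.9% and 11.8% of all genes higher and 10.5% lower in M0. DESeq2 called 3, 3 and 0 of the 12 higher, so the M0 calls, that of Stab2 included, were not made by it. Stab2, stabilin-2, known chiefly from sinusoidal endothelium, was higher by 1.20 ± 0.29 (SE, adjusted p = 0.00277) in LPS, 0.66 ± 0.13 (SE, adjusted p = 5.10e-04) in IL-4 and 0.47 ± 0.14 (SE, adjusted p = 0.0163) in M0. The endothelial marker sums were higher in all KO libraries in LPS and M0, but in IL-4 only in KO libraries 7 and 8. Cd300lf and Cd300a, lipid-binding receptors of myeloid cells, were higher in LPS by 1.14 ± 0.20 (SE, adjusted p = 1.40e-04) and 0.64 ± 0.16 (SE, adjusted p = 0.00339). Of 10 further scavenger receptors, 4 were higher in KO in LPS, 3 in IL-4 and 3 in M0, and DESeq2 gave the same counts. Called lower were 0 of these 10 in each state by edgeR and by DESeq2, with 2 in M0 at an unadjusted p under 0.05. Of all genes, 14.6%, 18.2% and 10.5% were lower in LPS, IL-4 and M0. Colec12, a scavenger receptor with a lectin domain known from endothelium and stroma, was higher by 0.55 ± 0.087 (SE, adjusted p = 2.82e-05) in LPS, 0.58 ± 0.069 (SE, adjusted p = 8.49e-07) in IL-4 and 0.37 ± 0.069 (SE, adjusted p = 3.86e-04) in M0, while Cd68, a lysosomal glycoprotein of macrophages, was higher by 0.41 ± 0.11 (SE, adjusted p = 0.00457) in LPS.

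Downstream of uptake, 2 of 13 engulfment genes were higher and 3 lower in KO in LPS, 3 and 2 in IL-4, and 1 and 1 in M0. These counts are near the shares over all genes (16.2% and 14.6%, 17.9% and 18.2%, and 11.8% and 10.5%), and DESeq2 called 1 lower in LPS. Gulp1, an adaptor of engulfment receptors, was higher by 0.78 ± 0.16 (SE, adjusted p = 5.71e-04) in IL-4 and 0.80 ± 0.16 (SE, adjusted p = 9.99e-04) in M0, and Dock1, an activator of RAC, was lower in LPS, at -0.27 ± 0.079 (SE, adjusted p = 0.009605). Of 15 genes found by symbol (16 listed) for digesting corpses and handling their sterols, 7 were higher and 1 lower in LPS, 6 and none in IL-4 (0 lower also unadjusted and by DESeq2), and 3 and 1 in M0, beside those same shares of all genes. Abcg1, a sterol exporter and LXR target, was higher by 0.75 ± 0.084 (SE, adjusted p = 3.42e-07) in LPS and 0.90 ± 0.066 (SE, adjusted p = 5.26e-10) in M0. Lipa, lysosomal acid lipase, was higher by 0.87 ± 0.11 (SE, adjusted p = 3.30e-06) in LPS, where its response to LPS also differed (0.85 ± 0.15 (SE, adjusted p = 4.48e-04)). Of 6 genes for receptor shedding and inhibitory signals, 2 were higher in LPS, 1 was higher and 1 lower in IL-4, and 1 was higher in M0, while DESeq2 also called 1 lower in LPS. Among these Adam17, the protease known to shed MERTK, was higher by 0.22 ± 0.058 (SE, adjusted p = 0.00447), 0.33 ± 0.049 (SE, adjusted p = 1.60e-05) and 0.15 ± 0.049 (SE, adjusted p = 0.0246) in LPS, IL-4 and M0.

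Of 13 transcription factors known to drive the receptor genes, 6 were higher and 3 lower in KO in LPS, 1 and 2 in IL-4, and 1 and 5 in M0, beside 16.2% and 14.6%, 17.9% and 18.2%, and 11.8% and 10.5% of all genes. By DESeq2 the counts were 5 and 3, 1 and 1, and 0 and 3. Nr1h3, which encodes LXRα, a regulator of Cd5l, Mertk and Abcg1, averaged 174 ± 32.6 CPM in KO LPS and 138 ± 9.8001 CPM in WT LPS, and 19.6 ± 1.24 CPM in KO IL-4 and 15.7 ± 1.01 CPM in WT IL-4 (SD, n = 4 each). Its log2 fold changes were 0.38 ± 0.073 (SE, adjusted p = 2.94e-04) in LPS and 0.32 ± 0.063 (SE, adjusted p = 3.32e-04) in IL-4. The M0 difference of Nr1h3 is not reported here. Maf was lower in M0, at -0.55 ± 0.14 (SE, adjusted p = 0.00671) and Nfe2l2, which encodes the NRF2 factor known to drive Marco and Cd36, at -0.29 ± 0.065 (SE, adjusted p = 0.00207). Spic, a factor of haem-handling macrophages, was higher by 1.23 ± 0.21 (SE, adjusted p = 9.77e-05) in LPS, with an interaction of 1.32 ± 0.29 (SE, adjusted p = 0.00381).

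**Figure D4:**
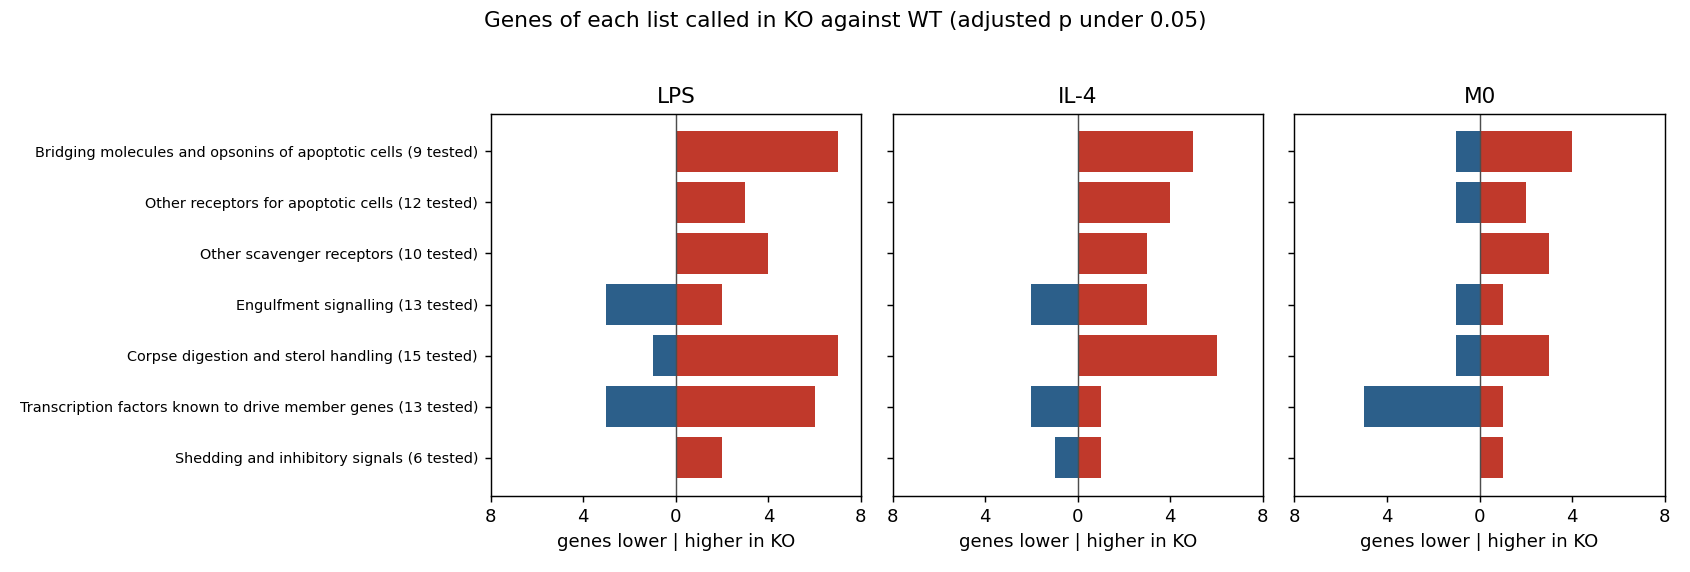
Bars count the genes of each list that were higher (red, right) or lower (blue, left) in KO than in WT at an adjusted p under 0.05, in LPS, IL-4 and M0. Bridging molecules reach 7 higher and 0 lower in LPS, and the transcription factors 1 higher and 5 lower in M0 (0 and 3 by DESeq2).

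Across the 21 deep libraries, several receptors varied together. Marco correlated with Axl at a Pearson r of 0.95 and with Msr1 at 0.87, and Mrc1 with Cd163 at 0.92, on log2 CPM, while Mrc1 and Axl had an r of -0.97. Cd5l stood apart from both, with 0.01 against Axl and 0.04 against Mrc1, and Mertk had 0.45 against Axl and -0.37 against Mrc1. These values describe libraries that share states and genotypes. Among 10279 genes with a mean of at least 5 CPM, the gene most like Axl was Irak2 (r = 0.996), most like Marco was Vasp (0.982), most like Msr1 was Arhgdib (0.988) and most like Cd36 was Mmp12 (0.989). Mrc1 was most like Manba (0.988), Cd163 most like Hsd17b4 (0.989), Stab1 most like Peli2 (0.984) and Scarb1 most like Iqgap3 (0.968). Cd5l, whose pattern set genotype apart in every state, was most like Pcp4l1 (0.981), followed at a distance by Pld3 (0.948), and Mertk was most like Crim1 (0.947).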

How the data were processed

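The deposited tables hold, from their values, raw read counts by gene symbol. The submitters' processing notes name TopHat2 2.1.0, HTSeq 0.9.1 and build mm10 (GRCm38). The sources used here do not give the annotation, library kit or strand setting. The counter's summary lines, 8.76% to 9.98% of each library's total, were left out.

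R 4.3.3 with edgeR 4.0.16 was used for the reported tests: TMM scaling, filterByExpr by group (14693 of 24421 genes kept), and 1 quasi-likelihood fit over all 24 libraries with a mean for each of the 6 groups, which leaves 18 degrees of freedom. Adjusted p (Benjamini-Hochberg, threshold 0.05) covers all genes kept. CPM uses effective library sizes. The steps were tested on simulated data.

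Alternatives were DESeq2 1.42.0 (size factors, test), no filter, only the compared groups, single libraries, shallow libraries or KO number pairs left out, number pairs summed, and a replicate block. The reported fit used no pairs, while the block took all replicate numbers as pairs within a genotype. Only between KO M0 and KO IL-4 did the deviations of every same-numbered pair correlate at 0.34 or more. KO M0 numbers 5 and 6 each matched the other's number best in KO IL-4. The receptors and gene lists were chosen with earlier results of these data known. The text names all 10 receptors, up to 4 genes per list and contrast with the smallest adjusted p (3 for stimulations), and the genes most like each receptor. Any other gene of the lists is counted in them and not reported by itself here. Gene positions and promoters come from RefSeq (GRCm38.p6), and exon lengths and overlaps from GENCODE M21.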

Additional observations from a re-analysis of the deposited data

Results flagged for a closer look

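In WT M0, library 1 held 7.98 CPM of Marco (664 counts), against 0.969 to 1.85 CPM in the other 3 libraries of the group. In WT LPS, library 2 held 10.5 CPM of Mrc1, from 2 counts, against 45.6 to 46.4 CPM in the other 3. These are 2 of the 60 groups of 4 values examined with Dixon's criterion at 95%, and chance alone gives about 1 in 20.

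The LPS response differed between genotypes by the interaction test for Mrc1 (1.15 on the log2 scale), Cd5l (0.995), Mertk (0.59) and Axl (0.46), and the IL-4 response for Stab1 (0.58).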

How the results depend on the processing

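Cd5l stayed higher and Msr1 lower in KO, past the threshold, in all 3 states under every alternative tried, except Msr1 in IL-4 with number pairs summed (adjusted p = 0.0956). Counts of receptors that moved by over 1.5 times were mostly those of IL-4. Between genotypes in IL-4, 2 were higher (1 in the fit over all libraries) with DESeq2 size factors, without KO numbers 7 and 8, or with only the compared groups. In the same contrast 1 was lower (2 in the fit over all libraries) by DESeq2, 4 without KO numbers 5 and 6, and 0 with number pairs summed. The positive IL-4 interactions numbered 0 (against 1) with no filter, with number pairs summed, and without the shallow libraries and WT M0 library 1, an alternative chosen after seeing the data. They numbered 4 without KO numbers 5 and 6. Negative LPS interactions numbered 1 (against 0) without KO numbers 7 and 8. With number pairs summed, 1 receptor was lower in M0, 2 were lower in LPS and 0 had a positive LPS interaction. The summed WT LPS numbers 1 and 2 were still shallow there.

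Uncalled values near 0 changed sign. Scarb1 with IL-4 in WT was -0.044 with DESeq2 size factors and -0.044 by DESeq2. The LPS interaction of Scarb1 was 0.025 by DESeq2 and 0.063 without KO numbers 5 and 6. Mertk with LPS in KO was 0.036 without the shallow libraries, with or without WT M0 library 1. Without KO numbers 5 and 6, KO over WT was -0.057 for Mertk in M0 and 0.017 for Axl in IL-4. Without KO numbers 7 and 8 it was 0.081 for Scarb1 in M0, and 0.017 for Mrc1 and 0.016 for Scarb1 in IL-4, while the interactions were -0.021 for Msr1 with LPS and -0.033 for Mertk with IL-4.

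Leaving out single libraries gave 1 to 2 receptors higher and 1 to 2 lower in IL-4, and 0 to 1 positive IL-4 interactions. Ranges that crossed 0 or changed sign were -0.047 to 0.11 for Mertk in M0 between genotypes, -0.22 to 0.098 for Mertk with LPS in KO, -0.038 to 0.089 for Cd163 and -0.047 to -0.029 for Scarb1 with IL-4 in WT, -0.025 to 1.37 for Marco, -0.0024 to 0.18 for Msr1 and -0.12 to 0.085 for Scarb1 in the LPS interaction, and -0.15 to 0.021 for Scarb1 in the IL-4 interaction. The cause was not tested.

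Same-numbered libraries of M0 and IL-4 correlated in their deviations from the group means at -0.03, 0.61, -0.10 and 0.28 for WT numbers 1 to 4 and at 0.62, 0.34, 0.51 and 0.56 for KO numbers 5 to 8. The reported fit took no libraries as pairs. The replicate block took all numbers as pairs within a genotype, those of WT and of LPS included. Same-numbered M0 and LPS libraries correlated at -0.05 to 0.12. The interactions of the block thus rest on pairs that these correlations bear out only in part. KO M0 number 5 was most like KO IL-4 number 6, and KO M0 number 6 most like KO IL-4 number 5. KO numbers 7 and 8 and WT number 2 were most like their own number. In the KO libraries the block changed no receptor's call with IL-4. A replicate block gave 1 negative LPS interaction, that of Cd163 (-0.78, adjusted p = 0.0271), 5 positive LPS interactions (against 4, with Cd36 added at 0.35, adjusted p = 0.0236), and 4 positive IL-4 interactions (Stab1, with Cd36 at adjusted p = 0.0323, Cd163 at 0.0197 and Cd5l at 0.00996).

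Over all genes, DESeq2 called 765 higher and 676 lower in KO in M0 (against 1738 and 1541 by edgeR), 1620 and 1051 in LPS (against 2384 and 2150) and 1485 and 1321 in IL-4 (against 2632 and 2675). For the interactions it gave 643 positive and 215 negative with LPS (against 972 and 704) and 41 and 50 with IL-4 (against 69 and 98). IL-4 raised 2152 genes in KO and 2962 in WT by DESeq2 (against 3825 and 4535). With number pairs summed the counts were 285 and 272, 1142 and 946, and 934 and 896 in M0, LPS and IL-4, with 58 and 7 LPS and 0 and 0 IL-4 interactions. IL-4 interactions over all genes varied most, from 0 and 0 with number pairs summed to 497 and 621 with the replicate block. The 3 shallow libraries limit LPS values of Mrc1, Cd163, Cd5l, Mertk and Scarb1, which held 0 to 14 counts there.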
